A study of Mus musculus with 15 samples.

Results

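Kcnk1, Kcnk2, Kcnk3, Kcnk5 and Kcnk6 encode two-pore potassium channels, and their transcripts were measured in whole hearts of diabetic and non-diabetic mice. Every spot that is not a control and whose gene name in the scanner files is one of these 5 symbols was taken, which gave 5 of 27845 gene names and 7 of the 41174 probes on the arrays. The genes were chosen by their heart to reference ratios over the 3 groups, which were already known, so the levels and differences of the members are a description and carry no test. The lists of other genes that are tested below were also chosen with earlier results of these data known. To be tested, a probe needed a heart signal that the scanner software rated well above background on 4 or more of a group's 5 arrays, and 6 of the 7 met this. The other one, a Kcnk5 probe, is described with them. Kcnk1 met that condition only in the diabetic hearts.

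The non-diabetic animals were heterozygous db/+ mice (C57BL/KLS-leprdb/lepr+), littermates that carry 1 mutant and 1 normal copy of the leptin receptor gene Lepr. The diabetic animals were homozygous db/db mice (C57BL/KLS-leprdb/leprdb), which lack the signalling form of the receptor in every tissue and become obese and insulin resistant. The 15 hearts came from 5 db/+ mice, 5 untreated db/db mice and 5 db/db mice given rosiglitazone, an agonist of the nuclear receptor PPAR-gamma, at 5 mg/kg/day in normal chow for 4 months. Control animals thus also carry the mutant allele, no db/+ mouse received the drug, and ages are not given in the sources used here. Each heart RNA was labelled with Cy5 and hybridised beside the same commercial mouse reference RNA, labelled with Cy3. A value is therefore a log2 ratio of heart to reference, where 0 is equal signal in both and 1 unit is a doubling. The arrays lay on 4 slides. Slide 1 held db/+ hearts alone and slide 4 treated hearts alone. Slide 2 held db/+ replicate 5 with untreated replicates 1 to 3, and slide 3 held untreated replicates 4 and 5 with treated replicates 1 and 2. The arrays of treated replicates 3 and 4 differed in their heart channel by less than nearly all pairs of arrays differed in the reference channel (a median absolute deviation of 0.142, which 100 of 105 pairs exceeded), so their mean was counted as 1 sample and the treated group has n = 4.

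Two-pore channels pass potassium at rest and so help set the resting membrane potential and the final part of repolarisation in heart muscle. A channel is a pair of subunits, each of which contributes 2 pore-forming loops, which gives the family its name. Subfamilies differ in what opens and closes them. TREK channels respond to stretch, lipids and temperature, TASK channels close in acid and after stimulation of Gq-coupled receptors, and TWIK channels pass little current and are largely held inside the cell. Kcnk1 encodes TWIK-1, Kcnk6 encodes TWIK-2, Kcnk2 encodes TREK-1, Kcnk3 encodes TASK-1, and Kcnk5 encodes TASK-2, which opens in alkaline conditions and is best known from kidney epithelium.

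The probes are 60 bases long and each was printed once on an array. The first 30 bases are shown for the probes on which the account below turns, in lower case and read 5′ to 3′: the single Kcnk1 probe, and the pairs for Kcnk3 and Kcnk5, for which 2 probes report on 1 gene. 
Kcnk1 A_52_P642488: cctaacaaactcaagagaaaatcggtacga
Kcnk3 A_52_P639402: ctgggaaatccttaggtggaaggaatctgg
Kcnk3 A_51_P292221: agacccctcacctccggagggaactaatgt
Kcnk5 A_52_P514352: aatattttttaatgaactgttatttttata
Kcnk5 A_51_P267861: tacagatggctggaagtacagcatccaagg

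The scanner files place the Kcnk1 probe at chr8:128916471-128916530 on the plus strand of the mm8 build. The Kcnk3 probes lie at chr5:30901298-30901357 and chr5:30899761-30899820, also on the plus strand, with 1477 bases between them. The Kcnk5 probes lie on the minus strand at chr14:18931158-18931217 and chr14:18932899-18932958, with 1681 bases between them. The probe for Kcnk2 (A_51_P487027) is at chr1:190909667-190909726 and that for Kcnk6 (A_51_P315890) at chr7:28930956-28931015, both on the minus strand. G and C make up 38.3% of the bases of the Kcnk1 probe, 53.3% and 45.0% of those of the Kcnk3 probes, and 35.0% of those of the first Kcnk5 probe. The accession of every probe matched the same gene in the RefSeq table. Which exon or untranslated region a probe covers was not determined here, since no annotation of the mm8 build was used.

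Kcnk1 was near background in db/+ hearts, clearly present in untreated db/db hearts and higher again in treated db/db hearts. Its log2 ratio in the db/+ hearts was -2.27, -4.04, -2.64, -1.57 and -2.49. In the untreated db/db hearts it was 2.01, 1.74, 2.47, 2.27 and 2.77. In the treated db/db hearts it was 3.78, 3.50, 3.96, 4.17 and 3.94. The 3 groups did not overlap, and the lowest treated heart lay above the highest untreated heart. Kcnk1 was the only one of the 7 probes whose ratios did not overlap between untreated db/db and db/+ hearts, where 4.33% of the 27593 tested probes had higher values without overlap. The same was true of treated against untreated db/db hearts (2.08% of tested probes) and of treated db/db against db/+ hearts (7.61%). An order without overlap from db/+ through untreated to treated hearts was found for 22 tested probes, 0.0797% of them, and Kcnk1 is among these by the choice of the gene.

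**Figure D1:**
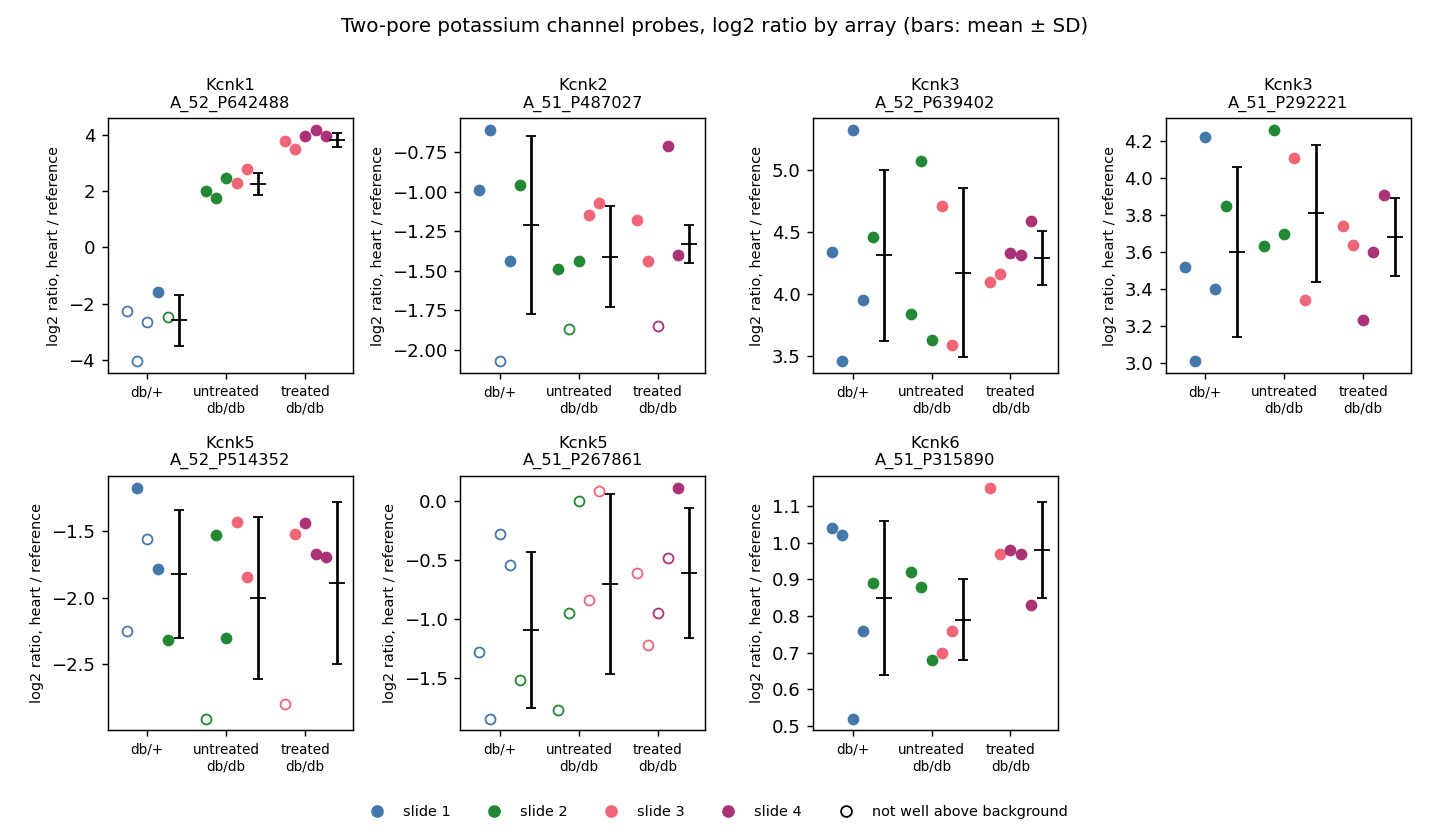
Heart over reference RNA as a log2 ratio (vertical axis, with a range of its own in each panel) for the 7 probes of 5 two-pore potassium channels on each array, by group. Colours mark the slide, open points mark a heart signal not well above background, and bars give the mean ± SD with treated replicates 3 and 4 averaged. The groups separate for Kcnk1 and overlap for the other 6 probes.

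The mean log2 ratio of Kcnk1 was -2.60 ± 0.90 (SD, n = 5) in db/+, 2.25 ± 0.40 (SD, n = 5) in untreated db/db and 3.82 ± 0.24 (SD, n = 4) in treated db/db hearts. The db/+ hearts thus spread most, where the signal was lowest. The difference of untreated db/db from db/+ hearts was 4.85 (standard error 0.35), and that of treated from untreated db/db hearts was 1.57 (standard error 0.37).

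The step from db/+ to db/db hearts was in the heart channel. The processed heart signal of Kcnk1 was 30.1, 8.22, 19.2, 52.6 and 26.4 in the db/+ hearts, and only replicate 4 was well above background. In the untreated db/db hearts it was 470, 459, 922, 2163 and 1182. In the treated db/db hearts it was 2559, 2613, 2807, 2907 and 3663. All 10 db/db arrays were well above background, at 10.1 to 78.8 times the lowest signal so rated on the same array. In db/+ replicates 1, 2, 3 and 5 the signal was 0.282 to 0.652 times that lowest signal, so a ratio as low as -4.04 has no firm size. In the heart channel after Aquantile scaling between arrays, with the dim db/+ arrays set to the lowest signal well above background on the same array, the log2 difference from db/+ was 4.23 (standard error 0.34) for untreated and 5.71 (standard error 0.37) for treated db/db hearts.

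The reference signal of Kcnk1 ran from 119 to 156 beside db/+ hearts, from 116 to 450 beside untreated db/db hearts and from 161 to 238 beside treated ones. It was well above background on all 15 arrays. Although the same reference RNA was used throughout, the treated arrays lay above the db/+ arrays in this channel too, by far less than in the heart channel. After scaling to the 75th percentile of each array, the mean log2 reference signal was -5.13 ± 0.12 (SD, n = 5) on db/+ and -4.87 ± 0.12 (SD, n = 4) on treated arrays. What raised it was not tested.

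**Figure D2:**
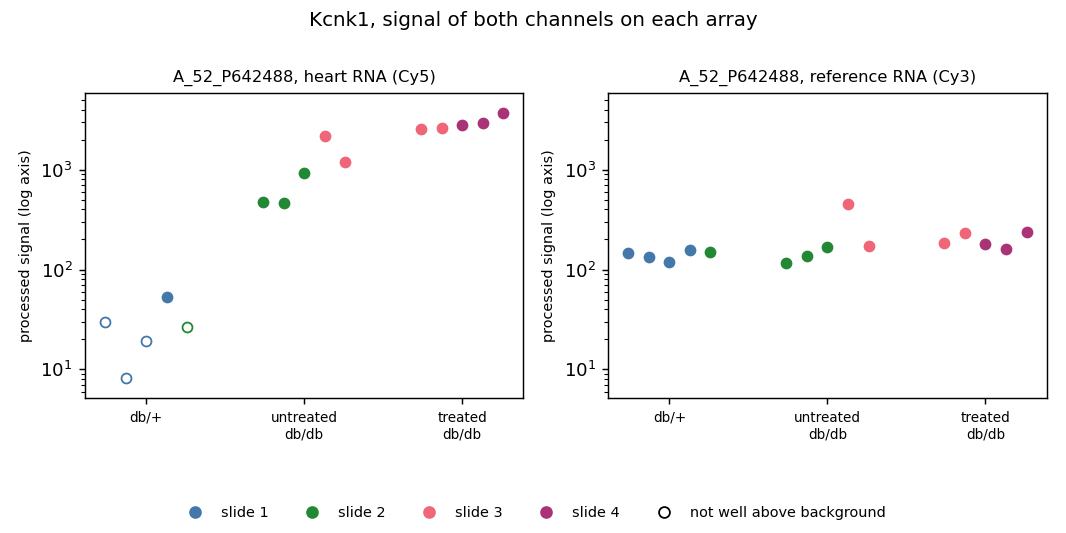
Processed signal of the Kcnk1 probe (vertical log axis) in the heart channel (left) and the reference channel (right) on each array, by group. The heart signal runs from 8.22 to 52.6 in db/+, 459 to 2163 in untreated and 2559 to 3663 in treated hearts, while the reference signal stays between 116 and 238 except for 450 on untreated replicate 4.

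Untreated db/db replicate 4 had high Kcnk1 signal in both channels, 2163 for the heart and 450 for the reference. Scaled to the 75th percentile, its reference signal was 2.62-fold above the median of the 15 arrays. Of the 24075 tested probes with a reference signal well above background on every array, 15 (0.0624%) were that high on this array against their own median. The ratio of 2.27 was in the middle of its group. In the heart channel alone, this array is where untreated and treated hearts met: the scaled log2 heart signal of the untreated hearts reached -1.33, above the lowest treated value of -1.43. Without this array, the highest untreated value was -2.19, and the treated hearts were higher by 1.83 in the heart channel and by 1.57 in the ratio. With all arrays, the heart channel gave a log2 difference of treated from untreated hearts of 1.52 (standard error 0.46), and untreated hearts lay above db/+ hearts by 5.17 (standard error 0.44).

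On slide 2, where both genotypes lay side by side, the db/+ heart had a Kcnk1 ratio of -2.49 and the 3 untreated db/db hearts had 2.01, 1.74 and 2.47, a log2 difference of 4.57. The heart channel alone gave 4.61 on that slide. On slide 3, the untreated hearts had 2.27 and 2.77 and the treated hearts 3.78 and 3.50, a log2 difference of 1.12 in the ratio and of 0.46 in the heart channel. This second value is less than the 1.52 over all slides, and untreated replicate 4 is 1 of the 2 untreated arrays in it.

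Kcnk6, the other TWIK gene, showed no such pattern. Its log2 ratio was 1.04, 1.02, 0.52, 0.76 and 0.89 in db/+ hearts. It was 0.92, 0.88, 0.68, 0.70 and 0.76 in untreated db/db hearts, and 1.15, 0.97, 0.98, 0.97 and 0.83 in treated db/db hearts. The groups overlapped throughout, and the lowest value was from db/+ replicate 3. The log2 difference of untreated db/db from db/+ hearts was -0.06 (standard error 0.11), and that of treated from untreated db/db hearts was 0.20 (standard error 0.11). Kcnk6 was well above background on every array, with a heart signal of 1585 to 4222. After scaling to the 75th percentile its reference signal had an SD of 0.04 on the log2 scale over 15 arrays, with 0.2% of the 24075 probes lower, and before scaling it ranged 1.95-fold.

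Kcnk2, whose TREK-1 channel opens on stretch, was dim in these hearts. Its heart signal lay between 50.2 and 149 and was well above background on 12 of the 15 arrays, 4 of 5 in each group. The log2 ratio was -0.99, -0.61, -2.07, -1.44 and -0.96 in db/+ hearts. It was -1.49, -1.87, -1.44, -1.15 and -1.07 in untreated and -1.18, -1.44, -1.85, -0.71 and -1.40 in treated db/db hearts. The lowest value of each group was from its array below that limit. The log2 difference of untreated db/db from db/+ hearts was -0.19 (standard error 0.23) and that of treated from untreated db/db hearts 0.08 (standard error 0.25), with the groups overlapping in both. Treated replicates 3 and 4, counted as 1 sample, differed from each other more than any other treated arrays for this probe, at -1.85 and -0.71.

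Kcnk3, the TASK-1 gene, was bright and gave 2 readings that depend on the channel. Its ratio also depended on the background and normalisation, as given at the end. The deposited ratio did not separate the groups. At the brighter probe (A_52_P639402) it was 4.34, 3.46, 5.32, 3.95 and 4.46 in db/+ hearts, 3.84, 5.07, 3.63, 4.71 and 3.59 in untreated, and 4.10, 4.16, 4.33, 4.31 and 4.59 in treated db/db hearts. The log2 difference of untreated db/db from db/+ hearts was -0.14 (standard error 0.34) and that of treated db/db from db/+ hearts -0.01 (standard error 0.36). The highest value in each of the first 2 groups was from db/+ replicate 3 and untreated replicate 2.

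The heart signal of that probe did separate the db/+ hearts from the db/db hearts. It was 25406, 21998, 15563, 25780 and 27486 in db/+ hearts. It was 33358, 28296, 40359, 39360 and 42073 in untreated and 32108, 55008, 42401, 36363 and 44399 in treated db/db hearts. Every db/db heart lay above every db/+ heart. Scaled to the 75th percentile of each array, the mean log2 heart signal was 2.21 ± 0.14 (SD, n = 5) in db/+, 2.81 ± 0.14 (SD, n = 5) in untreated and 2.81 ± 0.21 (SD, n = 4) in treated db/db hearts. The log2 difference from db/+ hearts was 0.60 (standard error 0.12) in both, a 1.52-fold higher signal. In this channel 3.62% of the tested probes were higher without overlap in the untreated db/db group, and 8.9% in the treated group, each against db/+. Treated and untreated db/db hearts overlapped, with a log2 difference of 0.00 (standard error 0.12). Within slide 2 the untreated hearts were higher than the db/+ heart by 0.44 in the heart channel and lower by 0.28 in the ratio (log2 difference -0.28).

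The dimmer Kcnk3 probe (A_51_P292221) did the same. Its log2 ratio overlapped between the groups, at 3.01 to 4.22 in db/+, 3.34 to 4.26 in untreated and 3.23 to 3.91 in treated db/db hearts. Its scaled heart signal was higher than in db/+ hearts by 0.68 (standard error 0.21) in untreated and by 0.95 (standard error 0.22) in treated db/db hearts, on the log2 scale. The treated hearts did not overlap with the db/+ hearts, and the untreated hearts did. Over the 15 arrays, which share slides and reference RNA, the 2 Kcnk3 probes had a correlation of 0.81 in the ratio, 0.66 in the heart channel and 0.87 in the reference channel.

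A ratio is heart over reference, and the reference signal of Kcnk3 varied. At the brighter probe this signal, before scaling, ran from 389 on db/+ replicate 3 to 3487 on untreated replicate 5, an 8.96-fold range for 1 reference RNA, and at the dimmer probe the range was 7.31-fold. After scaling, the SD of the log2 reference signal was 0.68 and 0.62, against a median of 0.12 over 24075 probes, and larger than for 98.9% and 98.2% of them. The arrays with the lowest reference signal, 389 on db/+ replicate 3 and 844 on untreated replicate 2, are those with the highest ratios. Both arrays were also the dimmest of the 15 in general. Their median reference signals, 757 and 925, and their shares of signals above background, 56.4% and 61.4%, were the lowest. Over the 15 arrays the ratio of the brighter probe had a correlation of -0.87 with its own reference signal and of -0.17 with its heart signal. The mean reference signal was also lower on db/+ arrays (-2.09 ± 0.73, SD, n = 5, log2 against the 75th percentile) than on untreated (-1.35 ± 0.79, SD, n = 5) and treated arrays (-1.48 ± 0.24, SD, n = 4).

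**Figure D3:**
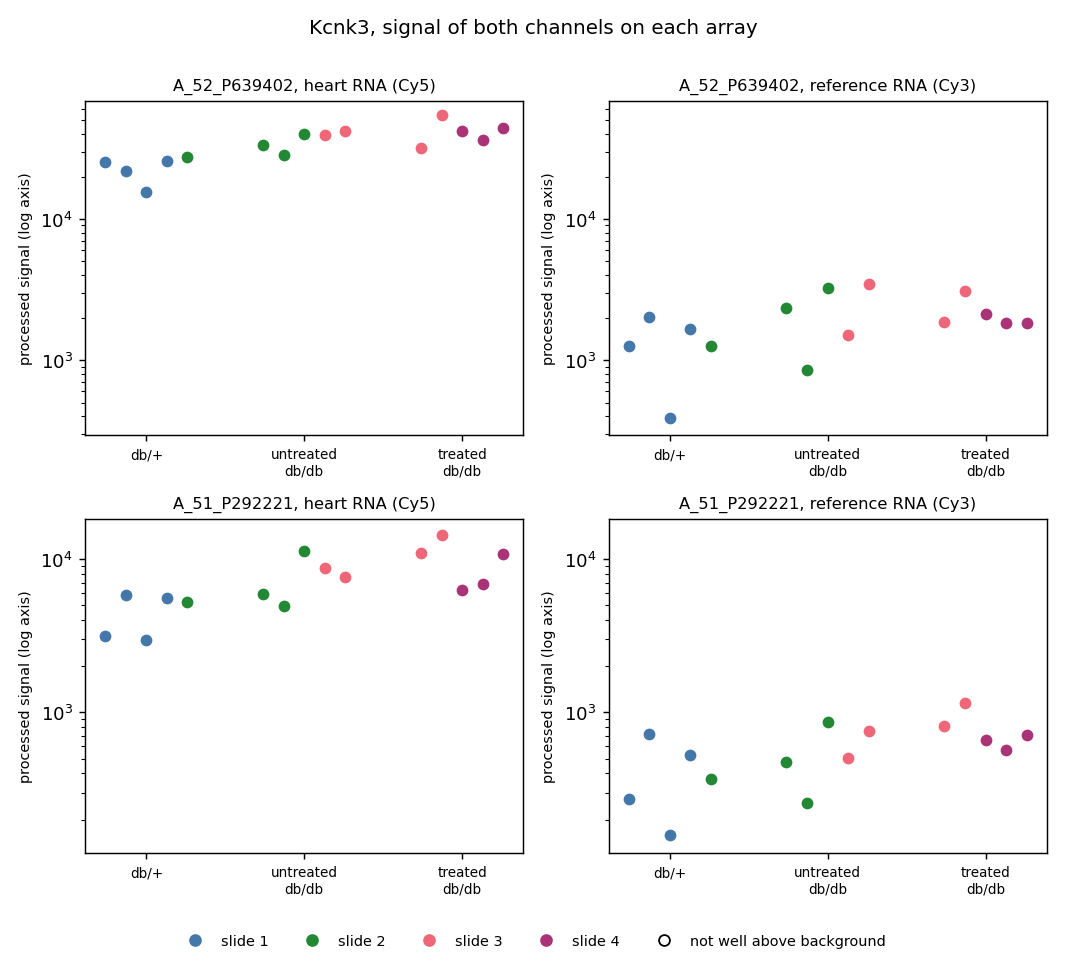
Processed signal (vertical log axis) of the 2 Kcnk3 probes, 1 in each row, in the heart channel (left) and the reference channel (right) on each array, by group. At the brighter probe every db/db heart, from 28296 upwards, lies above the db/+ hearts, which reach 27486, while the reference signal ranges from 389 to 3487.

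Of 12 cardiomyocyte markers, 10 had a positive correlation of their scaled reference signal with that of the brighter Kcnk3 probe over the 15 arrays. The correlations ran from -0.22 for Tnni3, the cardiac troponin I gene, to 0.85 for Irx4, a ventricular transcription factor, with a median of 0.51. Myl4, an atrial light chain, was the other one below 0, at -0.18. Over the 24074 other probes with a reference signal on every array, 45.3% of the correlations were positive and the median was -0.05. Irx4, Ryr2 (0.77), the calcium release channel, and Actc1 (0.76), cardiac actin, were closest. The points share the arrays, and what moved these reference signals was not tested.

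Kcnk5, the TASK-2 gene, was at the limit of detection. At the brighter probe (A_52_P514352) its heart signal was 30.8 to 115 and was well above background on 3 db/+, 4 untreated and 4 treated arrays. The log2 ratio was -2.25, -1.17, -1.56, -1.78 and -2.32 in db/+ hearts. It was -2.91, -1.53, -2.30, -1.43 and -1.84 in untreated and -2.80, -1.52, -1.44, -1.67 and -1.69 in treated db/db hearts. The groups overlapped, with a log2 difference of -0.19 (standard error 0.33) for untreated db/db against db/+ and of 0.11 (standard error 0.35) for treated against untreated db/db hearts. The lowest untreated and treated values were from arrays where the signal was not well above background.

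The second Kcnk5 probe (A_51_P267861) had a heart signal of 5.59 to 17.6 on 14 arrays, none of them well above background, and of 54.4 on treated replicate 5, which was. On that array the reference signal was also the highest of the 15, at 50.3 against 7.09 to 26.7 elsewhere. Its ratios and differences therefore rest on signals at background and have no firm size. Over the 15 arrays, which share slides and reference RNA, the ratios of the 2 Kcnk5 probes had a correlation of 0.09.

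**Figure D4:**
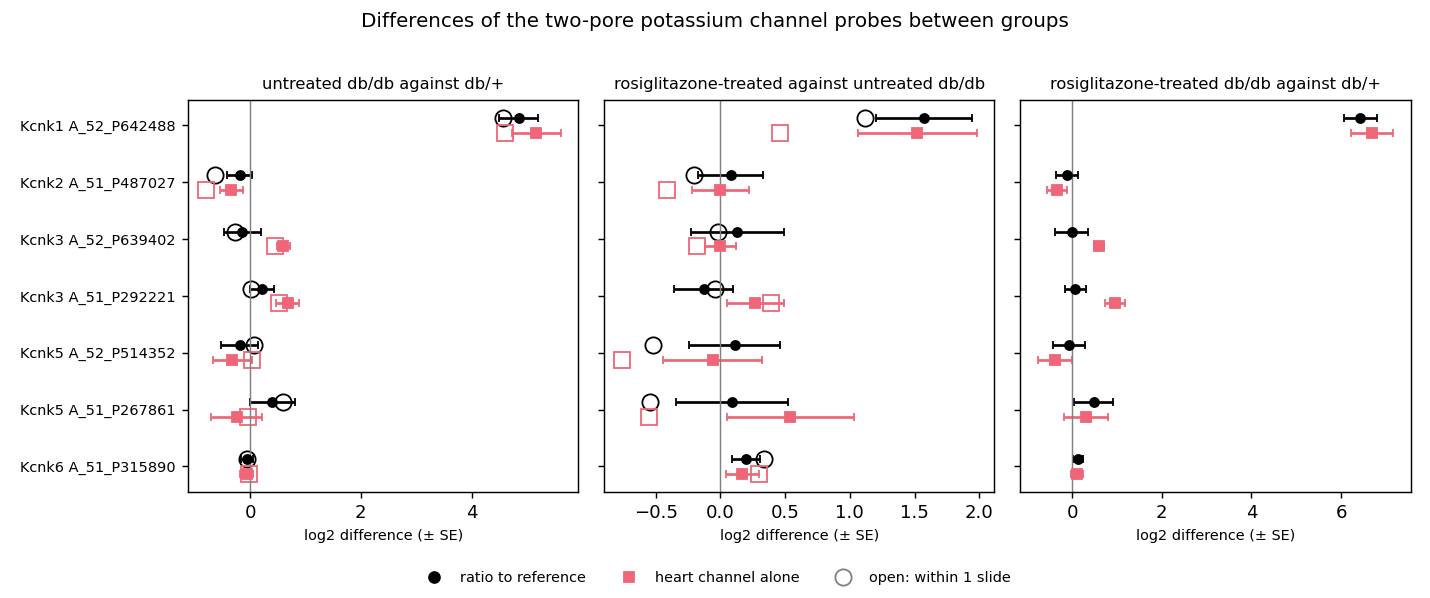
Log2 difference ± standard error (horizontal axis, with a range of its own in each panel) of the 7 probes in the 3 comparisons, from the ratio to the reference (black circles) and from the heart channel alone (red squares). Large open symbols give the difference within slide 2 (left panel) and slide 3 (middle panel). Kcnk1 stands at 4.85, 1.57 and 6.43 in the ratio. The Kcnk3 probes are higher in db/db than db/+ hearts in the heart channel, at 0.60 to 0.95. In the deposited ratio they differ by -0.14 to 0.21.

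Over the 14 samples, the log2 ratio of Kcnk1 had a correlation of -0.21 with Kcnk2, -0.04 and 0.18 with the Kcnk3 probes, -0.16 with Kcnk5 and 0.13 with Kcnk6. After the group means were taken out, these were -0.19, 0.04, 0.06, -0.28 and -0.37. These values are a description, since samples of a slide share their processing.

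Among all tested probes with a gene symbol, the ratios most like those of Kcnk1 over the 14 samples were those of Fkbp5, a co-chaperone of the glucocorticoid receptor (r = 0.98), and Gdf8, the older symbol of the myostatin gene (r = 0.97). Atf6, a transcription factor of the unfolded protein response, and Pcdhb20, a protocadherin, followed at r = 0.96. The next were Mfsd4, a membrane transporter of the major facilitator family, Cds1, which makes CDP-diacylglycerol, Egfbp2, a tissue kallikrein, and Cyp2b13, a cytochrome P450, each at r = 0.95. All 8 had their lowest mean in db/+ and their highest in treated db/db hearts, which is the pattern they were picked for. The size of the step differed: from untreated to treated hearts the mean log2 ratio went from 2.25 to 3.82 for Kcnk1, from 0.32 to 0.61 for Fkbp5 and from 4.91 to 5.81 for Gdf8. Gdf8 was well above background on 0 of the 5 db/+ arrays. After group means were taken out, the correlation of these 8 genes with Kcnk1 was 0.14 to 0.62. The genes most like Kcnk1 in that second sense were Cox4i1, a subunit of cytochrome c oxidase, H1fnt, a testis linker histone, and Scml2, a Polycomb protein, each at r = 0.87, and then Ifna13, an interferon alpha, and Scotin, at r = 0.86. These correlations rest largely on the db/+ hearts, where Kcnk1 spread most and 4 of 5 arrays were not well above background.

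Of the other two-pore genes, 5 had 6 probes on the arrays, and Kcnk12 and Kcnk13 passed the filter, with 1 probe each. Both encode THIK channels. Kcnk12 (A_52_P238184) was well above background on 1 db/+, 4 untreated and 5 treated arrays. Its mean log2 ratio was -0.78 ± 0.40 (SD, n = 5) in db/+, -0.53 ± 0.35 (SD, n = 5) in untreated and -0.06 ± 0.28 (SD, n = 4) in treated db/db hearts. The difference of treated db/db from db/+ hearts was 0.72 (standard error 0.22), with a limma adjusted p of 0.059 over all tested probes, and did not pass 0.05. Since Kcnk12 met the filter through the db/db groups and 4 of the 5 db/+ arrays were not well above background, the size of this difference is uncertain. Kcnk13 (A_51_P167763) was well above background on every array and its differences were 0.21, -0.12 and 0.09 in turn for untreated db/db hearts over db/+, treated over untreated, and treated over db/+. None passed the test (limma adjusted p of 0.31, 0.87 and 0.70). Without adjustment, 1 of these 2 probes had a p under 0.05, Kcnk12 in treated db/db against db/+ hearts, where 26.8% of all tested probes had one. The probes of Kcnk4, Kcnk7 and Kcnk16 had too little heart signal to be tested, and Kcnk16 was above background on 0 of 15 arrays.

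A list of 19 genes on the arrays whose proteins bind, traffic or modify two-pore channels had 33 tested probes. For untreated db/db against db/+ hearts 2 fell, none rose and 31 did not pass, and for treated db/db against db/+ hearts 3 fell, none rose and 30 did not pass. Of all tested probes, 7.76% and 8.7% passed in these comparisons, 3.39% and 4.21% as lower. Without adjustment 5 and 8 probes of the list had a p under 0.05, where 25.5% and 26.8% of all tested probes did. The median log2 difference of the list was -0.034 and -0.105, against 0.013 and 0.005 over all tested probes. The probes that fell were those of Mtap2, a microtubule protein that binds TREK-1, and Ywhaq, an adaptor of the family that brings TASK-1 to the cell surface. Mtap2 (A_52_P22763) fell from a mean log2 ratio of 1.98 ± 0.49 (SD, n = 5) in db/+ to 1.09 ± 0.17 (SD, n = 5) in the untreated db/db group, a log2 difference of -0.90 (standard error 0.19, limma adjusted p = 0.013). In treated db/db hearts it was 0.92 ± 0.06 (SD, n = 4), 1.06 below db/+ on the log2 scale (log2 difference -1.06, limma adjusted p = 0.0069). Both db/db groups lay below all db/+ hearts.

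Ywhaq has 2 tested probes. The dimmer (A_52_P308542) fell by 0.40 in untreated (log2 difference -0.40, standard error 0.08, limma adjusted p = 0.0085) and by 0.35 in treated db/db hearts (log2 difference -0.35, limma adjusted p = 0.022) against db/+. The brighter (A_51_P504992) had a log2 difference of -0.26 in untreated db/db hearts and did not pass (limma adjusted p = 0.11), and fell by 0.40 in treated db/db hearts (log2 difference -0.40, limma adjusted p = 0.030). With slide as a fixed block, which rests on slides 2 and 3, no probe of this list passed. The share of all tested probes that passed with that block is not given. Stx8, a syntaxin that traffics TASK-1, had a log2 difference of -0.41 at its brightest probe in treated db/db against db/+ hearts and did not pass (limma adjusted p = 0.065).

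A list of 15 genes of the Gq pathway, whose activity closes TASK and TREK channels, had 28 tested probes. None passed in any of the 3 comparisons by limma. At an unadjusted p under 0.05 there were 7 for untreated db/db against db/+, 3 for treated against untreated and 3 for treated db/db against db/+ hearts, where 25.5%, 8.78% and 26.8% of all tested probes had such a p. The closest, each at its brightest probe, were Prkce, protein kinase C epsilon, in treated db/db against db/+ hearts (log2 difference 0.33, standard error 0.10, limma adjusted p = 0.052) and Agtr1a, the angiotensin II receptor, in untreated db/db against db/+ hearts (0.52, standard error 0.19, limma adjusted p = 0.10). In the same comparisons the other Prkce probes had 0.75 (standard error 0.45) and -0.13 (standard error 0.22), and the other Agtr1a probe 0.64 (standard error 0.24). The median log2 difference of the list was 0.145 for untreated db/db against db/+ and 0.226 for treated db/db against db/+ hearts. This list depended on the channel. In the heart channel alone 4 of its probes passed in each of these comparisons, and with a normexp background and loess 6 and 2 did.

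A list of 15 other potassium channel genes of heart muscle had 20 tested probes. For untreated db/db against db/+ hearts 2 rose, 1 fell and 17 did not pass. For treated db/db against db/+ hearts 1 rose, 1 fell and 18 did not pass. Of all tested probes, 7.76% and 8.7% passed. Without adjustment 5 and 4 probes of the list had a limma p under 0.05, where 25.5% and 26.8% of all tested probes did. Kcnd3, of the transient outward current, rose in untreated db/db against db/+ hearts by 0.81 on the log2 scale (limma adjusted p = 0.0053). It did not pass in treated db/db against db/+ hearts (0.35, limma adjusted p = 0.16). Kcnh2, the ERG channel, rose by 0.50 and 0.66 in untreated and treated db/db hearts (limma adjusted p = 0.035 and 0.013). Kcnq1 fell at its dimmer probe (log2 difference -0.74 and -0.77, limma adjusted p = 0.037 and 0.036) and not at its brighter one (-0.01 and -0.02). Between treated and untreated db/db hearts 0 of the 27593 tested probes passed in limma, where 2423 (8.78%) had an unadjusted p under 0.05.

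In whole hearts, a change in the number of cells of a type and a change in RNA per cell cannot be told apart. The heart markers Myh6, Tnnt2, Tnni3, Actc1, Ryr2 and Pln were all well above background on every array, and no marker of the cardiomyocyte, atrial, ventricular, endothelial, smooth muscle, fibroblast, macrophage, skeletal muscle or epithelial lists passed in any comparison. This does not show an unchanged make-up, since several of these ratios were imprecise. For untreated db/db against db/+ hearts the ventricular marker Myl3 had a standard error of 0.93, and Myl2 a log2 difference of -1.14 (standard error 0.52). Near the threshold were Col3a1 of fibroblasts (-0.84, limma adjusted p = 0.057) and Acta2 of smooth muscle (0.68, limma adjusted p = 0.079). Other markers of these lists differed less: Dcn (-0.29), Col1a1 (-0.27) and Pdgfra (-0.02) of fibroblasts. Of smooth muscle, Myh11 had 0.30, Tagln -0.12 and Cnn1 -0.05. With the treated group set against db/+, Tagln came near the threshold as lower (-0.54, limma adjusted p = 0.089). The scaled log2 reference signal of the atrial marker Nppa had an SD of 1.25. The mean log2 ratio of the 3 atrial markers tested was 1.45 to 3.02 in db/+, 1.27 to 2.93 in untreated and 1.97 to 2.75 in treated db/db hearts. For epithelium, where TWIK-1 and TASK-2 are abundant, 3 of 5 markers could be tested, with a mean of -3.94 to -3.25 in db/+, -3.69 to -3.16 in untreated and -4.40 to -3.85 in treated db/db hearts, and Cdh1, the epithelial cadherin, was above background on 0 arrays.

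Of 5 adipocyte markers tested, 2 were lower in both db/db groups, where Kcnk1 was higher. Cfd (adipsin) and Adipoq (adiponectin) fell in untreated db/db against db/+ hearts, by 3.55 and 2.39 on the log2 scale (limma adjusted p = 0.00083 and 0.010), and in the treated group against db/+ (log2 difference -4.96 and -2.39, limma adjusted p = 9.1e-05 and 0.014). Between treated and untreated hearts they did not pass, at -1.42 and 0.00 (limma adjusted p = 0.46 and 1). Plin, Cidec and Fabp4 did not pass, with log2 differences of -0.05, 0.24 and -0.32 for untreated and -0.20, -0.72 and 0.47 for treated db/db hearts against db/+. The mean of the list was 2.14 to 3.41 in db/+, 1.13 to 2.89 in untreated and 1.08 to 1.46 in treated db/db hearts. Liver-type markers were uneven, with a mean of -0.13 to 2.32 in db/+, 2.16 to 5.32 in untreated and 0.77 to 3.43 in treated db/db hearts, and Apoa2, an apolipoprotein, rose in untreated db/db against db/+ hearts by 2.26 (limma adjusted p = 0.027). Within the groups, the correlation of Kcnk1 with the mean of a list was 0.08 for adipocyte and -0.30 for liver-type markers over 14 samples. Of all the marker lists it was lowest for the liver-type one. It was highest for skeletal muscle (0.51), atrial (0.43) and cardiomyocyte markers (0.28). Among nerve markers S100b fell in treated db/db against db/+ hearts (log2 difference -0.75, limma adjusted p = 0.0077). The part of these cells in the values of Kcnk1 was not tested.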

How the data were processed

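Whole-heart RNA (Cy5) was measured against a mouse reference RNA (Cy3) on 15 arrays with 45018 spots. Per the file headers, the authors read each spot's Cy5 and Cy3 intensity with Feature Extraction 9.5.1.1, including background subtraction and LOWESS normalisation of the dyes. The deposited ratio is log10 of Cy5 over Cy3, one value a spot. The value table the authors deposited holds the same log10 ratios. Sample labels name version 9.5.1 of the software. Ratios were converted to log2 and spots of a probe averaged over the 43379 spots that are not controls, without spots flagged as outliers.

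Tests ran on the 27593 probes whose Cy5 signal was rated well above background on 4 or more arrays in any group of 5. limma 3.58.1 in R 4.3.3 was fitted to the 3 groups together (14 samples, 11 residual degrees of freedom), with Benjamini-Hochberg adjustment over all tested probes and a threshold of 0.05, in place of the SAM procedure of the study. Standard errors of members come from this fit. The heart channel alone is log2 processed Cy5 signal less its 75th percentile over the tested probes. The number of arrays limits the precision.

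The members and lists were chosen with earlier results of these data known. Named are all member probes, genes of other lists past the threshold and up to 4 more by smallest p, and the genes most like Kcnk1 by Pearson correlation (8 over all samples, 5 within groups). Each heart was extracted separately. On simulated data with the same groups, rises and falls were added to a small part of 25998 probes in the untreated db/db samples. Of 2-fold rises 60% were found against db/+, and of 4-fold rises 92%. Shares for smaller rises and for falls are not given here. Among the unchanged probes 7 passed. The simulated noise was independent between probes, with no slide effect and no background limit, so these shares need not hold for the real data. Alternatives covered background, channel, scaling, filter, slide and replicate blocks, and each sample left out. The numbers of replicates do not pair the samples: deviations of same-numbered samples had correlations of -0.181 to 0.057.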

Additional observations from a re-analysis of the deposited data

Results flagged for a closer look

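Of the 42 sets of values checked (7 probes, 3 groups, ratio and heart signal), 2 held a sample far from the others of its group, and chance gives about 1 in 20 such sets. Both are the brighter Kcnk5 probe (A_52_P514352) in treated db/db replicate 1. Its log2 ratio was -2.80 where the next lowest treated sample had -1.69, and its log2 heart signal, scaled to the 75th percentile, was -7.44 where the next had -6.12. The signal was not well above background on that array.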

How the results depend on the processing

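The log2 difference of Kcnk1 ranged from 1.99 to 5.17 for untreated db/db against db/+ under the 26 alternatives run on it. It ranged from 1.12 to 1.70 for treated against untreated and from 3.25 to 6.69 for the treated group against db/+. Its direction was the same throughout, but many of these runs could not have changed it. The groups did not overlap in the ratio, so leaving out 1 sample keeps the sign. The deposited value table holds the same ratios, and Aquantile scaling left the ratio differences unchanged. The gene was also chosen by its values, so these ranges are a description. The lowest values for db/db against db/+ hearts, 1.99 and 3.25, came from a normexp background with an offset of 50 and loess, which change background, offset and normalisation together. With slide as a fixed block the difference of treated db/db from db/+ hearts was 5.69. No slide held both of these groups. The value joins the differences within slide 2 (4.57) and slide 3 (1.12), and db/+ replicate 5 is the only db/+ array in it. A run chosen after seeing the data used the heart channel after Aquantile scaling with dim arrays set to the lowest signal well above background. Its differences from db/+ were 4.23 for untreated and 5.71 for treated db/db hearts. Leaving out 1 sample at a time gave 4.49 to 5.11, 1.44 to 1.70 and 6.07 to 6.68 for Kcnk1 in the 3 comparisons. Of 468 values of the other members under the alternatives, 50 had the other sign than in the main analysis, and the largest in size was 1.52, for the dimmer Kcnk3 probe with normexp and loess. With that setting the ratio of both Kcnk3 probes was higher in db/db than db/+ hearts. For untreated hearts the log2 differences were 0.81 (standard error 0.33) at the brighter and 1.52 (standard error 0.48) at the dimmer probe. For treated hearts they were 0.91 (standard error 0.35) and 1.38 (standard error 0.51).

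Counts of partner probes past the threshold, 2 for untreated db/db and 3 for treated db/db against db/+ hearts, were 1 and 1 with normexp and loess, 1 for untreated in the heart channel alone, 0 and 0 with slide as a fixed block, and 4 for untreated with slide as a random block. Gq pathway probes, 0 in each comparison, numbered 6 and 2 with normexp and loess, 4 and 4 in the heart channel alone and 5 and 1 with slide as a random block, and for treated db/db against db/+ hearts 1 without a filter, with both channels well above background on every array, with treated replicates 3 and 4 separate, and at an adjusted p under 0.10. Of the other two-pore probes 1 passed for treated db/db against db/+ hearts at 0.10, with slide as a random block and with these replicates separate. Between treated and untreated hearts no probe of these lists passed under any alternative run. Leaving out 1 sample gave 2 to 2 and 1 to 4 partner probes (1 without treated replicate 1 and without treated replicate 5), 0 to 1 and 0 to 1 Gq pathway probes (1 in both without db/+ replicate 1, and 1 for treated without treated replicate 4) and 0 to 0 and 0 to 1 other two-pore probes (1 without db/+ replicate 1), each pair being untreated and treated hearts against db/+. With the replicate number as a block, partner probes past the threshold for treated db/db against db/+ hearts fell from 3 to 1, Kcnk1 differed by 4.85, 1.70 and 6.56, and the calls over all probes went from 2141 to 1126 for untreated and from 2401 to 984 for the treated group against db/+. The samples share only a number, so this is no pairing. Except for the replicate block, the number of all probes that passed is not given for these alternatives. The shifts in the counts can therefore not be read as particular to these lists. The cause of these shifts was not tested.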
